A study of Mus musculus with 8 samples.

Results

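Megakaryocyte and erythroid progenitors (MEP) carrying JAK2V617F and lacking Ezh2 were set against wild-type (WT) MEP, 1 array against 1 array, to describe which genes were higher or lower when both lesions were present. The microarray was a one-colour Agilent mouse design, which gives the brightness of a labelled RNA on each probe. Of the 20041 autosomal genes that the probes could be matched to, 11601 were read, that is, they were well above background on the brighter array of the pair after 198 autosomal probes above background on the WT MEP array and on none of the other 7 arrays had been left out, and the whole array matched 20887 genes. The MEP arrays of the single mutants served only to set the double mutant's log2 fold against the sum of the single log2 folds. The Ezh2Δ/Δ, JAK2V617F and double-mutant MEP folds all use the same WT MEP array, so their values stand side by side and no overlap between them was counted as a result.

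The groups used were JAK2V617F/Ezh2Δ/Δ MEP, Ezh2Δ/Δ MEP, JAK2V617F MEP and WT MEP, with the LSK array of the double mutant and that of WT as a second pair (LSK are stem and early progenitor cells, lacking lineage markers and positive for c-Kit and Sca-1). Donors were C57BL/6, and all of them carried Cre-ERT2, a tamoxifen-inducible recombinase, including those of the WT group. The Ezh2 donors were homozygous for a floxed Ezh2, the JAK2 donors carried JAK2V617F, and the double mutants carried both. Whole marrow was grafted into lethally irradiated CD45.1+ wild-type recipients, Ezh2 was deleted at week 4 after grafting, and cells were sorted at 2 months. Each array was made from 20 ng of RNA of 1 group, so every difference below has no replicate check, and no test or p-value was possible. The promoter or cell type that drives the recombinase, the kind of JAK2V617F allele and the number of animals behind each sorted sample are not given in the sources used here.

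JAK2V617F is an activating mutation of the kinase behind the erythropoietin and G-CSF receptors, among others, which signals mainly through STAT5 and drives myeloproliferative neoplasms. Ezh2 is the catalytic subunit of Polycomb repressive complex 2 (PRC2), which places the repressive H3K27me3 mark on developmental, cell-cycle inhibitor and fetal genes. MEP give rise to erythrocytes and, through megakaryocytes, to platelets, and are sorted away from the granulocyte and macrophage progenitors that share their parent.

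A level here is the log2 processed signal of a gene's probe minus the 75th percentile of its array, and a log2 fold is the difference of 2 such levels. The repeated spots of a probe differed by a median SD of 0.063 to 0.068 (log2) within an array, and different probes of a gene gave double-mutant folds with an SD of 0.38 between probes. Of the probes on each MEP array, 39.8% to 44.1% were well above background and 0 were saturated. A value not well above background was raised to the lowest level measured above background on its array, and a fold against it is written as "at least". Xist, the RNA of the inactive X chromosome, had levels of 2.99 in double-mutant MEP, 2.16 in Ezh2Δ/Δ MEP, -4.92 in JAK2V617F MEP and -4.66 in WT MEP, and the Y-linked Eif2s3y had -5.17 in double-mutant MEP, -4.79 in Ezh2Δ/Δ MEP, 3.45 in JAK2V617F MEP and 3.56 in WT MEP. Sex-linked RNA was thus of the female pattern on both Ezh2-deleted arrays and of the male pattern on the others, sex cannot be told apart from Ezh2 genotype, and only autosomal genes were used. All 8 arrays lie on 1 slide, with genotypes set out by column and cell types by row, and the place on the slide cannot be told apart from the group either.

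A set of spots stood apart on the MEP arrays. Probes at least 4-fold above every other array numbered 314 on the double-mutant MEP array, 420 on Ezh2Δ/Δ, 417 on JAK2V617F and 518 on WT MEP, against 16 to 67 on the LSK arrays. On the MEP arrays 84.4% to 98.1% of these spots lay in rows 1 to 192 of 384, and on the LSK arrays 34.1% to 52.9%. Among the genes counted below, 57 of the higher ones rest on such a probe of the double mutant and 22 of the lower ones on such a probe of WT. Without these probes the double mutant had 619 genes at least 2-fold higher and 669 lower. Apcdd1, Kcna6, Acot4 and Gnai1 among the higher genes, and Orc5, Rapgef5, Rbm44, Krtap9-1, Myo7b, Usp54, Col25a1, Zfyve9, Akap5 and Mafg among the lower ones, were of this kind, and their folds are not described among the results.

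**Figure D1:**
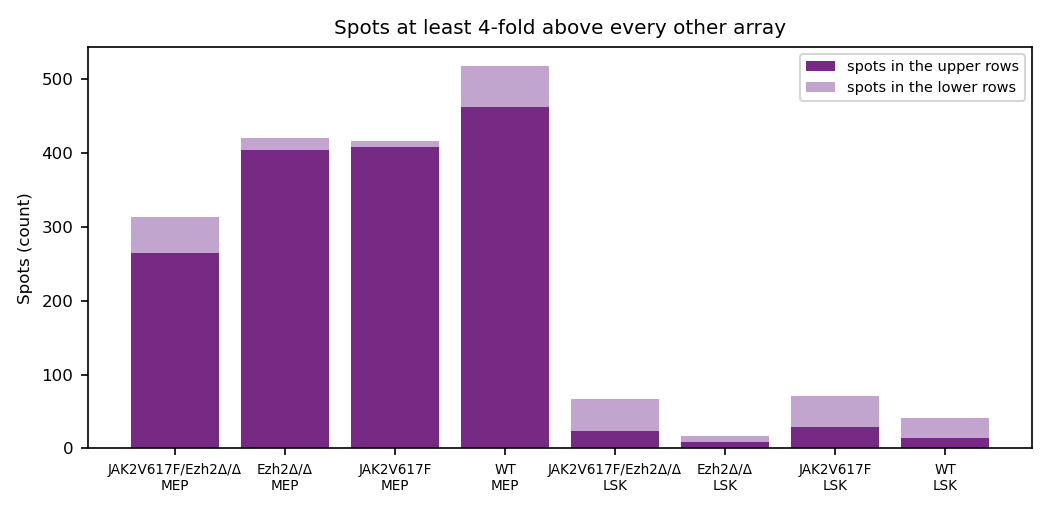
Count of spots at least 4-fold above every other array, for the 4 MEP arrays and then the 4 LSK arrays, split by the upper 192 rows of the array (dark) and the lower rows (pale). Each MEP array held 314 to 518 such probes, and most of their spots lay in the upper rows.

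In the double mutant 676 genes were at least 2-fold higher than in WT MEP (5.83% of genes read) and 691 were at least 2-fold lower (5.96%). By list median, genes of granulocytes led the higher side and genes of megakaryocytes and platelets the lower side. Of the higher genes 408 were measured on both arrays and 268 were not well above background in WT; of the lower genes 588 were measured on both and 103 were not well above background in the double mutant. At least 4-fold apart, 139 genes were higher and 73 lower, and at least 8-fold apart, 33 and 24. These counts still hold the bright spots described above. Probes above background on the WT MEP array alone had been left out, while those on the double-mutant array alone had not. With the WT probes kept, 814 genes rather than 691 were at least 2-fold lower. No direction is therefore read from the large differences. The median log2 fold of all genes read was -0.24 for the double mutant, -0.08 for Ezh2Δ/Δ and -0.01 for JAK2V617F, so a list median is read against that value. With normexp background correction 334 genes were higher and 342 lower. Each count of called list members below stands beside the shares over all genes read, 5.83% higher and 5.96% lower. The lists are described by counts over the genes read: a gene read only through the array where it is high had to differ, and of the listed genes 20 of 24 granulocyte, 23 of 27 megakaryocyte and platelet, 30 of 34 erythroid, 10 of 20 monocyte and 8 of 19 B lineage genes were read.

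The sum of the single folds could be compared for 10284 genes above background on all 4 MEP arrays. In this comparison the double mutant enters the fold and its departure with the same sign and WT with opposite signs, so these measures are not independent. A WT value that is off moves the fold and the departure in opposite directions. A fold was called more or less than the sum when it passed it or fell short of it by over 1 log2 in its own direction, which was the case for 7.29% (more) and 2.88% (less) of these genes. Of the 961 genes at least 2-fold apart that could be compared, 741 lay within 1 log2 of the sum, 151 went beyond it and 69 fell short; 406 could not be compared. Among the higher ones, 286 of 393 lay within the margin, 71 went beyond and 36 fell short. Among the lower ones, 455 of 568 lay within it, 80 went beyond and 33 fell short. Counted by sign instead, 3.9% of genes read had a departure of at least 1 and 6.27% of at most -1, around a median of -0.25.

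**Figure D2:**
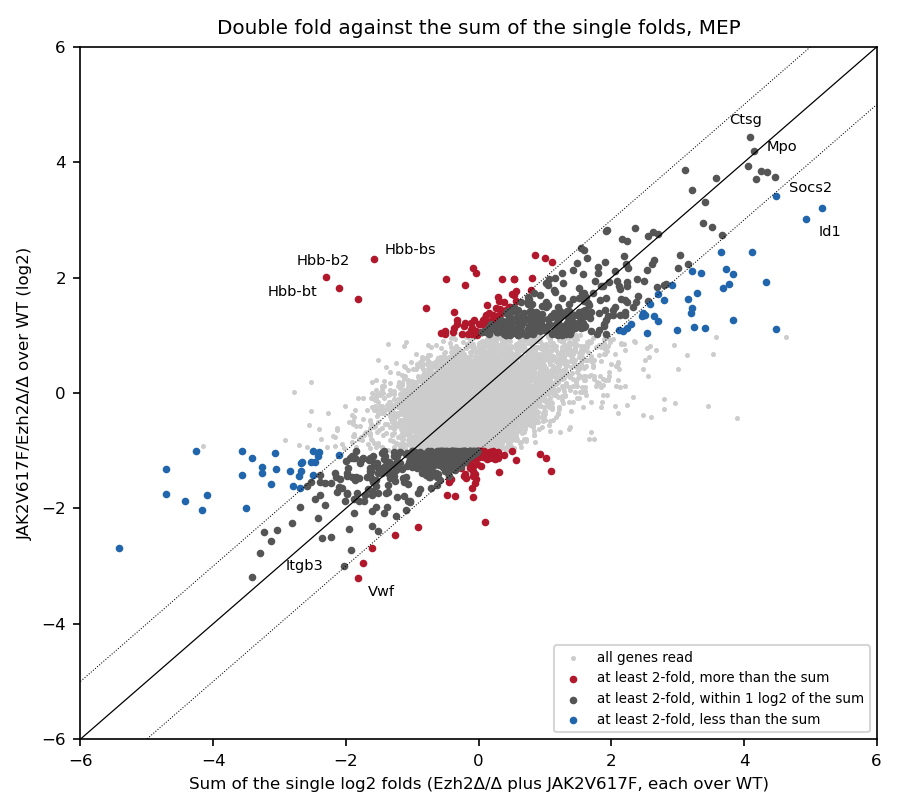
Log2 fold of double-mutant over WT MEP (vertical) against the sum of the Ezh2Δ/Δ and JAK2V617F log2 folds over WT (horizontal), 1 point per gene, with the line of equality and lines 1 log2 away. Of 961 genes at least 2-fold apart, 741 lie between the dotted lines; the Hbb genes lie far above the line; 4 genes lie outside the axes.

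Granulocyte genes were the highest-ranking list. Of 20 read, 17 were at least 2-fold higher in the double mutant and 0 lower, with a median log2 fold of 2.57, against 0.27 in Ezh2Δ/Δ and 2.36 in JAK2V617F. Their summed linear signal, relative to the 75th percentile, was 716 in the double mutant, 308 in Ezh2Δ/Δ, 392 in JAK2V617F and 237 in WT. Csf3r, the G-CSF receptor gene, was the brightest of the list on every MEP array and weighs most in this sum. Its levels were 8.55 in the double mutant, 7.98 in Ezh2Δ/Δ, 7.65 in JAK2V617F and 7.70 in WT, less than 2-fold apart. The sum therefore does not stand for the list as a whole. As RNA came from sorted bulk cells, more cells of a type and more RNA per cell cannot be told apart here, and the share of granulocyte-lineage cells in the sorts was not tested. WT MEP also had most of these transcripts above background, Mpo and S100a9 among them.

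Promoter sequence was set beside this list because its members were high together. RefSeq promoters (GRCm38.p6, 250 bases before to 50 after the start, the first start listed where a gene has several) were found for 18 of the 20. The letters TTGCNNAA, a C/EBP-type motif, were searched on both strands, and 8 of 18 (44.4%) held them, against 8.5% of the 9315 promoters of genes read. GATA-type (AGATAA) and STAT-type (TTCNNNGAA) letters were searched too, each in 3 of 18 (16.7%), against 6.9% and 7.2%. ETS-type letters were in 1 (5.6%, against 3.3%) and RUNX-type in 0 (against 3.7%). CG pairs were scarce: 83.3% of the 18 held under 0.4 of the expected count, against 17.9% of all. The share over all genes is therefore not a like background. The letters TTGCNNAA were not in the promoters of Ctsg, Mpo, S100a8 and Camp, which were among the highest of the list, and were in that of Gfi1, with a log2 fold of 0.60 (at least). A match is a description of letters and does not show that a factor binds. The promoters of S100a9, a subunit of the calprotectin pair, and Ngp, a neutrophil granule protein, are shown with these letters in capitals, and that of Cish, a STAT5-induced inhibitor of cytokine signalling described further on, with the STAT-type letters TTCNNNGAA in capitals, held by 7.2% of the promoters of genes read. They lie at chr3:90695672-90695971 on the minus strand, chr9:110419558-110419857 on the plus strand and chr9:107296409-107296708 on the plus strand.
S100a9: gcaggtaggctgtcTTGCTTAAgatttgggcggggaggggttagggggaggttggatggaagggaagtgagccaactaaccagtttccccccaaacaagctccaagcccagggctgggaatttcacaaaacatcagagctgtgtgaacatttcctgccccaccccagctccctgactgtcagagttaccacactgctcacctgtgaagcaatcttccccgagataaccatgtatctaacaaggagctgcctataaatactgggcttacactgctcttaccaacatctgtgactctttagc
Ngp: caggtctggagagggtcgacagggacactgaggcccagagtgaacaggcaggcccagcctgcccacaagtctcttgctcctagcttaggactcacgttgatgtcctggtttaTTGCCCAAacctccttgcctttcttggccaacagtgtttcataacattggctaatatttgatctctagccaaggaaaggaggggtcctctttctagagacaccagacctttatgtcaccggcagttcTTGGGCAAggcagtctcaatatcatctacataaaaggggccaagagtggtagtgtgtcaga
Cish: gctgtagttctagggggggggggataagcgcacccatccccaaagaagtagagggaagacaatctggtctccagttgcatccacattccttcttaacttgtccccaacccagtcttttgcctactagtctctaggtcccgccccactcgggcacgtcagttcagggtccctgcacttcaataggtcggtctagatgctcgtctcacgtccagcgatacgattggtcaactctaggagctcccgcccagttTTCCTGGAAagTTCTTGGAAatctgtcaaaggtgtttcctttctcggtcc

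Transcripts for proteins of the azurophil granules, the first to form, were higher in the double mutant than on the other MEP arrays. Mpo, the peroxidase of that granule, had levels of 6.55 in double-mutant, 3.53 in Ezh2Δ/Δ, 5.34 in JAK2V617F and 2.36 in WT MEP, an 18.3-fold difference (log2 4.19). Ctsg (cathepsin G) had levels of 4.95 in the double mutant, 1.83 in Ezh2Δ/Δ, 3.27 in JAK2V617F and 0.51 in WT, and was 21.7-fold higher than WT, the largest upward difference among the genes named. Prtn3 (proteinase 3) was 7.01-fold higher, with 2.09 in the double mutant, -0.48 in Ezh2Δ/Δ, 0.96 in JAK2V617F and -0.72 in WT. These stood in the same order, with the double mutant highest and JAK2V617F next, and each lay within 1 log2 of the sum. Elane, neutrophil elastase, was 2.71-fold higher, and Cebpe, a transcription factor of granule formation, at least 11.0-fold higher, since its WT probe was not well above background.

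Some transcripts for the later specific granule and for cytosolic proteins were as high, or less than 2-fold lower, in JAK2V617F alone. S100a8 had levels of 5.41 in the double mutant, 2.78 in Ezh2Δ/Δ, 4.72 in JAK2V617F and 1.58 in WT, a 14.2-fold difference. Camp, the cathelicidin peptide, was 13.4-fold higher, with 4.49 in the double mutant and 3.88 in JAK2V617F, and its other probe gave a log2 fold of 3.71. Ngp, Ltf (lactoferrin) and Lcn2 (lipocalin 2) were 5.42-, 3.71- and 3.84-fold higher than in WT. Ngp had 0.68 in the double mutant and 1.26 in JAK2V617F, and its fold fell 1.22 short of the sum. Over the whole granulocyte list, 12 genes at least 2-fold apart could be compared with the sum; Ngp was less than it and the other 11 were equal. Other members of the list went further in the double mutant. Fcnb (-0.92 in the double mutant, -2.67 in JAK2V617F) and Retnlg (-0.98 and -2.68) were above background on the double-mutant array alone among the MEP arrays. Wfdc21 had 1.01 and 0.29, while Chil3 was alike (2.12 and 2.14). Elane also differed by less than 2-fold between these arrays (3.17 and 2.22). The granule stages were told apart with the values known, and they do not part cleanly.

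The remaining 3 genes of the list differed less than 2-fold. Csf3r, the G-CSF receptor, had 8.55 in the double mutant, 7.98 in Ezh2Δ/Δ, 7.65 in JAK2V617F and 7.70 in WT (log2 fold 0.84). Cebpa, a factor of granulocyte and monocyte commitment, had a log2 fold of -0.61, and Gfi1 was at least 1.52-fold higher.

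**Figure D3:**
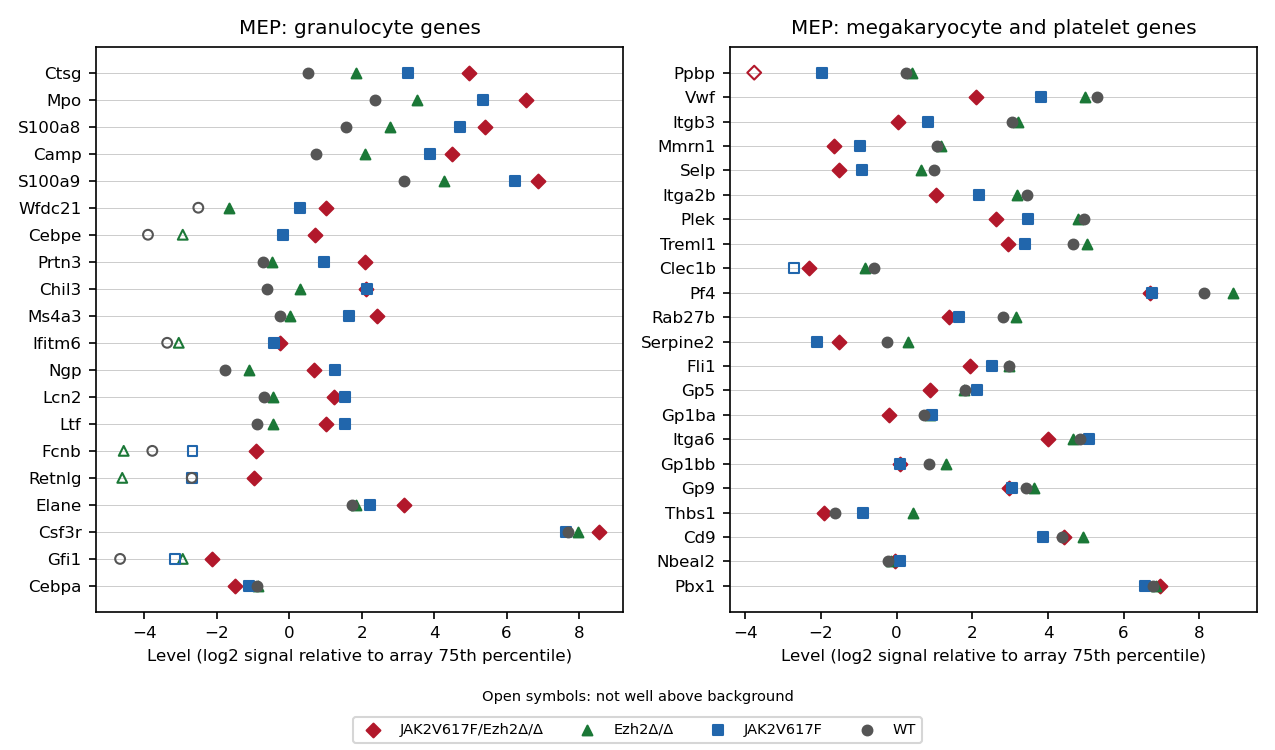
Levels in the 4 MEP arrays of the 20 granulocyte genes and 22 of the 23 megakaryocyte and platelet genes read (log2 signal relative to the array's 75th percentile); open symbols mark values not well above background. Except for Cebpa, the granulocyte genes lie highest in the double mutant or in JAK2V617F, and most platelet genes lie lower in the double mutant and JAK2V617F than in Ezh2Δ/Δ and WT.

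Genes of the megakaryocyte and platelet list were lower. At least 2-fold lower were 14 of the 23 read, and 0 were higher; the median log2 fold was -1.42, against 0.16 in Ezh2Δ/Δ and -1.26 in JAK2V617F. The summed signal was 310 in the double mutant, 810 in Ezh2Δ/Δ, 324 in JAK2V617F and 600 in WT. Vwf, von Willebrand factor, had levels of 2.10 in the double mutant, 4.97 in Ezh2Δ/Δ, 3.81 in JAK2V617F and 5.29 in WT, 9.17-fold lower than WT, which went beyond the sum by 1.38 (departure -1.38). Ezh2Δ/Δ and WT stood near each other and the double mutant lay lowest.

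The integrin subunits that form the fibrinogen receptor were also lower. Itga2b had levels of 1.05 in the double mutant, 3.17 in Ezh2Δ/Δ, 2.18 in JAK2V617F and 3.44 in WT, and was 5.24-fold lower. Itgb3 was 8.01-fold lower by its brighter probe and had a log2 fold of -0.95 by another. Ppbp, a platelet chemokine, was at least 9.61-fold lower, since it was not well above background in the double mutant. Mmrn1, Selp and Plek were lower by 2.72, 2.50 and 2.31 on the log2 scale. Pf4 (platelet factor 4) had 6.70 in the double mutant and 6.76 in JAK2V617F, against 8.89 in Ezh2Δ/Δ and 8.13 in WT. Its double-mutant and JAK2V617F levels were alike, which was not so for Vwf. Fli1, a megakaryocytic ETS factor, was 2.04-fold lower, while Cd9 had a log2 fold of 0.05. Of 21 genes read on all 4 arrays, 5 had a departure of at most -1 and 0 of at least 1, against 6.27% and 3.9% of all genes compared.

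Erythroid genes were mostly lower by less than 2-fold, and the adult beta-globins were the exception. Of 30 read, 24 had a negative fold, with a median of -0.74; 7 were at least 2-fold lower and 3 higher. Rhd, the Rh blood group antigen, was 2.57-fold lower and Car2 (carbonic anhydrase 2) 2.17-fold. Tfrc, the transferrin receptor, was 2.13-fold lower, and its 2 other probes gave -0.93 and -0.90. Klf1, a factor that drives erythroid genes, had 3.28 in the double mutant, 4.03 in Ezh2Δ/Δ, 4.13 in JAK2V617F and 4.28 in WT, just short of 2-fold lower than WT. Epor, the erythropoietin receptor, had a log2 fold of -0.85, and the summed signal of the list was 1170 in the double mutant, 1500 in Ezh2Δ/Δ, 1430 in JAK2V617F and 1770 in WT.

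Hbb-bt, an adult beta-globin, had levels of 6.28 in the double mutant, 3.55 in Ezh2Δ/Δ, 3.25 in JAK2V617F and 4.45 in WT. Each single mutant was lower than WT, the double mutant was 3.54-fold higher, and the departure was 3.94. Hbb-bs (5.01-fold higher) and Hbb-b2 (4.03-fold) gave departures of 3.90 and 4.31. In LSK, the double mutant over WT had log2 folds of 3.31 (Hbb-bt), at least 3.36 (Hbb-bs) and 3.36 (Hbb-b2). The Hbb-bt level was 7.91 in double-mutant LSK and 4.60 in WT LSK, so higher beta-globin was not particular to MEP. These genes are near-identical copies that a probe may not tell apart, so their values are not separate observations, although the list count holds Hbb-bt and Hbb-bs each. Hba-a1, an alpha-globin, had levels of 2.75 in the double mutant, 2.14 in Ezh2Δ/Δ, 1.04 in JAK2V617F and 3.66 in WT; its fold was -0.92 with a departure of 3.23. Sptb (beta-spectrin) was the third higher gene of the list, at least 3.18-fold.

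Markers of other lineages differed in part. Of 10 monocyte and macrophage genes read, 6 were at least 2-fold higher and 0 lower (median 1.60), among them F13a1 at least 8.38-fold, Cx3cr1 4.19-fold and Irf8 3.08-fold; Csf1r had a log2 fold of 0.15. The monocyte median was 0.57 over genes above background on all 4 MEP arrays and 0.22 over all listed genes with no filter. Of 10 mast cell and basophil genes, 5 were higher and 2 lower. Fcer1a, the IgE receptor's alpha chain, was 4.46-fold higher, with 0.02 in the double mutant, -2.09 in Ezh2Δ/Δ, 0.82 in JAK2V617F and -2.14 in WT; the basophil protease Mcpt8 was above background in WT alone among the MEP arrays and at least 9.89-fold lower. Of 8 T and NK cell genes 0 were 2-fold apart, and Cd3e had a log2 fold of 0.02. Of 15 stem cell genes 2 were higher and 1 lower, against 5.83% and 5.96% of all genes read. The higher ones were Cd48 (3.84-fold) and Dntt, and the lower one was Angpt1. Ly6a, which encodes Sca-1, was above background on the double-mutant array alone among the MEP arrays, by at least 1.06-fold over WT. Stroma and endothelium had 1 gene higher and 2 lower of 8, of which Cxcl12 rests on a probe bright on WT MEP alone (the list median was -0.11, and 0.13 without such probes), and MHC class II 0 of 6 either way.

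Most B lineage genes read were highest in Ezh2Δ/Δ alone. Vpreb1, part of the surrogate light chain of pre-B cells, had levels of 1.36 in the double mutant, 4.49 in Ezh2Δ/Δ, -0.50 in JAK2V617F and -1.13 in WT. It was highest in Ezh2Δ/Δ alone; the double mutant was 5.61-fold above WT and fell short of the sum by 3.76 (departure -3.76). Vpreb3 was at least 7.30-fold higher, with 0.21 in the double mutant and 4.02 in Ezh2Δ/Δ. Of the list 8 genes were read and 3 were higher. The 1 lower gene was Igll1, also of the surrogate light chain (2.35-fold, with -2.07 in the double mutant and -0.84 in WT). The list median was 0.62 in the double mutant and 2.84 in Ezh2Δ/Δ. Over all listed genes with no filter the double-mutant median was -0.29. The summed signal was 9.78 in the double mutant, 61.1 in Ezh2Δ/Δ, 4.54 in JAK2V617F and 4.67 in WT.

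Cytokine signalling genes differed in both directions. Of 18 JAK-STAT5 targets, 4 were higher and 2 lower (median 0.30). Socs2, a feedback inhibitor, had levels of 1.48 in the double mutant, -0.78 in Ezh2Δ/Δ, 1.40 in JAK2V617F and -1.94 in WT (log2 fold 3.42), and its other probes gave 3.46 and 2.99. The double mutant and JAK2V617F had like levels, and the fold fell short of the sum by 1.07 (departure -1.07). Id1, an inhibitor of basic helix-loop-helix factors, was 8.08-fold higher with a departure of -1.92. Cish, whose promoter is printed above, was 2.33-fold higher, and Osm, the cytokine oncostatin M, 3.83-fold. Ccnd1 (cyclin D1) and Bcl6 were 2.83- and 2.45-fold lower. Pim1, a kinase, had a log2 fold of 0.78.

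Some genes of the inflammatory and immediate early responses were higher than in WT. Of 19 NF-kB and TNF response genes 7 were higher and 0 lower (median 0.93), led by the cytokine Il6 at least 4.95-fold and by Cd83 3.26-fold. Of the 18 immediate early genes, 3 were higher (Egr4, Atf3 and Nr4a1) and 0 lower. Fos had levels of 4.95 in the double mutant, 5.66 in Ezh2Δ/Δ, 6.44 in JAK2V617F and 4.55 in WT, a log2 fold of 0.41 with a departure of -2.59. Klf2 had 4.79 in the double mutant, 5.61 in Ezh2Δ/Δ, 6.64 in JAK2V617F and 3.81 in WT, with a departure of -3.65. Both were higher in each single mutant than in the double mutant. Over the list, 14 of 18 had a departure of at most -1 (8 of 16 in the NF-kB list), against 6.27% of all genes compared. The same WT array enters each of these departures. The median fold of the immediate early list was 0.38 in the double mutant, 0.76 in Ezh2Δ/Δ and 1.25 in JAK2V617F.

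Genes linked to Polycomb were read in small numbers. Cdkn2a, the locus of the p16 and p19 cell-cycle inhibitors, had levels of 0.98 in the double mutant, -1.41 in Ezh2Δ/Δ, -0.19 in JAK2V617F and -4.84 in WT, where it was not well above background, so it was at least 13.1-fold higher. Its level was highest in the double mutant of the 4 arrays, though each single mutant was also above WT. Of 31 developmental regulators on the list, 6 were read and 3 were higher, among them Cdkn2a and Cdkn2b (at least 3.03-fold); the median was 1.18, and the direction turned when the genes were limited to those above background on all 4 arrays (-0.61) or averaged over all probes (-0.35). Lin28b, a fetal RNA-binding protein that blocks let-7, had 0.36 in the double mutant and was not well above background on the other MEP arrays, which makes it at least 8.57-fold higher. Hmga2, a chromatin protein encoded by a let-7 target, was at least 2.11-fold higher, and Afp, alpha-fetoprotein, 7.11-fold, with 1.73 in the double mutant, 0.81 in Ezh2Δ/Δ, -1.08 in JAK2V617F and -1.10 in WT. Of the 7 fetal and let-7 genes read, these 3 were higher and 1 was lower, Igf2bp2 (2.06-fold). Hmga1, the brightest of them, had 7.19 in the double mutant and 7.80 in WT. Dlk1, an imprinted growth regulator, was at least 3.78-fold higher, and Plagl1 4.76-fold by its brightest probe, with 2.63, 0.46 and 0.00 (log2) by the others. Of the 7 imprinted genes read, these 2 were at least 2-fold higher and 0 lower. Negative folds were seen for 2, Igf2r (0.04 in the double mutant, 0.90 in WT) and Gnas (5.70 and 6.36). The list medians were 0.73 (fetal) and 0.34 (imprinted), and -0.29 each with no filter on background.

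The PRC2 subunits themselves had 0 of 10 genes at least 2-fold apart (median -0.42). Ezh2 had levels of 3.57 in the double mutant, 4.04 in Ezh2Δ/Δ, 4.23 in JAK2V617F and 4.14 in WT; which exon its probe lies in is not known, so it checks nothing about the deletion. Jak2 had 2.51 in the double mutant, 3.07 in Ezh2Δ/Δ, 3.37 in JAK2V617F and 3.24 in WT. Of the 17 PRC1 subunits 1 was higher, a share like that over all genes (5.83%). It was Bmi1, with 3.79 in the double mutant, 4.11 in Ezh2Δ/Δ, 2.43 in JAK2V617F and 2.62 in WT (2.25-fold, and log2 1.04 by another probe). Bmi1 was high on both Ezh2-deleted arrays.

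Of 17 p53 targets 5 were higher and 0 lower, with Perp 6.64-fold, Fas at least 3.42-fold and Phlda3 3.05-fold; Mdm2 had a log2 fold of 0.34. Of 28 cell cycle genes 25 had a negative fold and 3 were at least 2-fold lower, Ccne1 (3.09-fold), Cdc6 and Mcm2, with a median of -0.56 against -0.24 for all genes. Of 21 interferon-stimulated genes 2 were higher and 4 lower, and 17 had a negative fold. The higher ones were Ifitm1 (11.5-fold, with 7.03 in the double mutant, 4.30 in Ezh2Δ/Δ, 5.93 in JAK2V617F and 3.50 in WT) and Ifi27l2a (7.35-fold). Of 17 TGF-beta and fibrosis genes 1 was higher, Fn1 (fibronectin, at least 3.53-fold), and 1 lower, Ltbp1, shares like those over all genes (5.83% and 5.96%). Fn1 was read only through the double-mutant array, and the list median of 0.09 turned to -0.36 over genes above background on all 4 MEP arrays.

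**Figure D4:**
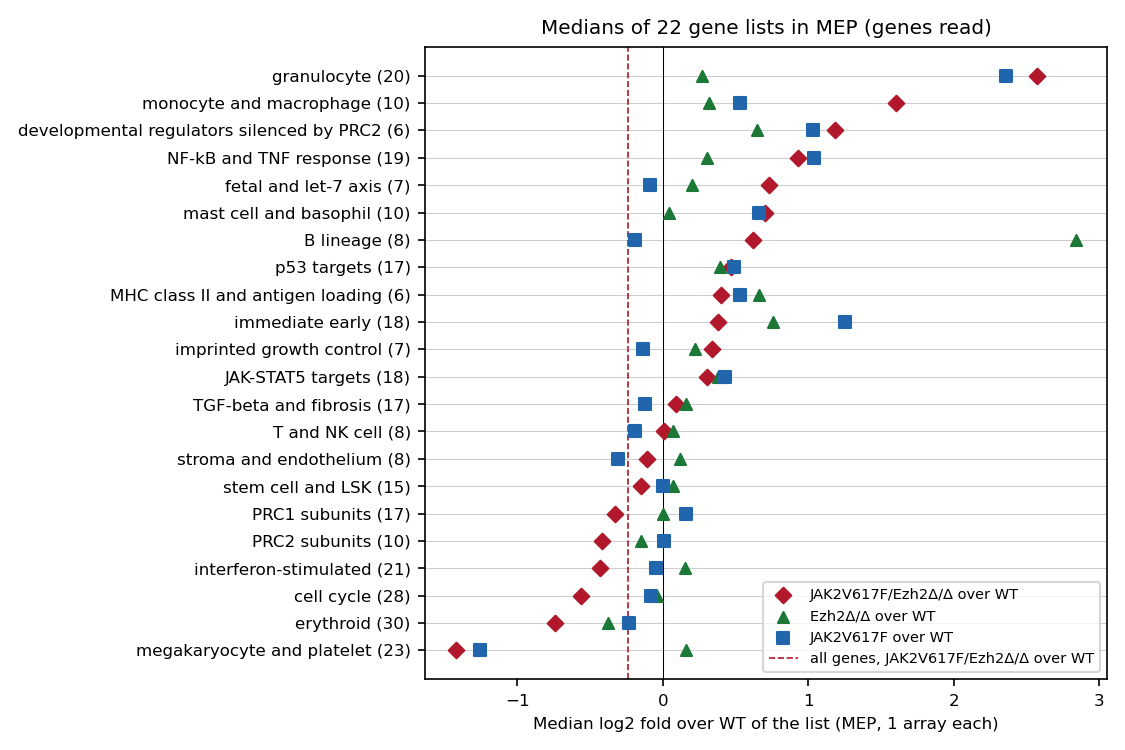
Median log2 fold over WT MEP of 22 gene lists for the double mutant, Ezh2Δ/Δ and JAK2V617F (1 array each, number of genes read in brackets), with the median of all genes for the double mutant as a dashed line at -0.24. The double mutant lies furthest to the right for granulocyte genes (2.57) and furthest to the left for megakaryocyte and platelet genes (-1.42).

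Outside the lists, the largest named differences were of diverse genes. Hp (haptoglobin) was 14.4-fold higher with 2.10 in the double mutant, -0.49 in Ezh2Δ/Δ, 1.25 in JAK2V617F and -1.75 in WT, and Ly6c1, a surface antigen, 14.6-fold higher. Echdc2 had levels of 2.31 in the double mutant, 1.85 in Ezh2Δ/Δ, -1.05 in JAK2V617F and -1.63 in WT, and Mlf1 had 1.82 in the double mutant, 0.84 in Ezh2Δ/Δ, -1.07 in JAK2V617F and -1.91 in WT. Both were higher on the Ezh2-deleted arrays, as was Catsperz, a sperm channel subunit, at least 18.8-fold higher in the double mutant than in WT. Clip2 and Gstm2 were at least 10.1- and 9.44-fold lower. Crygs was at least 14.4-fold lower and was above background in Ezh2Δ/Δ and WT only. Beside the globins and Vpreb1, departures were large for Hspb1 (-3.38), Ctsf (-2.58), Tas2r113 (-2.43), Ebi3 (-2.41), Jakmip1 (-2.32) and Atp9a (3.44), whose other probe had a log2 fold of -1.59, opposite in sign.

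The LSK arrays are a separate pair, in which 4.75% of 11225 genes read were at least 2-fold higher in the double mutant than in WT and 1.44% lower. Of the MEP-higher genes 593 were read in LSK, and 206 (34.7%) were also at least 2-fold higher there, while 2 were lower. Of the MEP-lower genes 629 were read, and 47 (7.47%) were also lower, while 26 (4.13%) were higher. Whether LSK and MEP of a genotype came from the same recipients is not given in the sources used here, and the LSK pair has the same sex difference, with Xist at 1.57 in the double mutant and -3.07 in WT. S100a9 had log2 folds of 3.71 in MEP and 3.81 in LSK, and Camp 3.75 and 4.03. Mpo had 4.19 in MEP and 0.05 in LSK, and Ctsg 4.44 and 0.92. Of 18 granulocyte genes read in LSK, 10 were at least 2-fold higher. Cdkn2a had at least 3.71 in MEP and at least 4.02 in LSK, and Lin28b at least 3.10 in MEP and at least 3.56 in LSK, since neither was well above background in WT of either cell type. Of 23 platelet genes, 2 were lower in LSK and 2 higher, and Vwf had a log2 fold of -0.35 there.

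**Figure D5:**
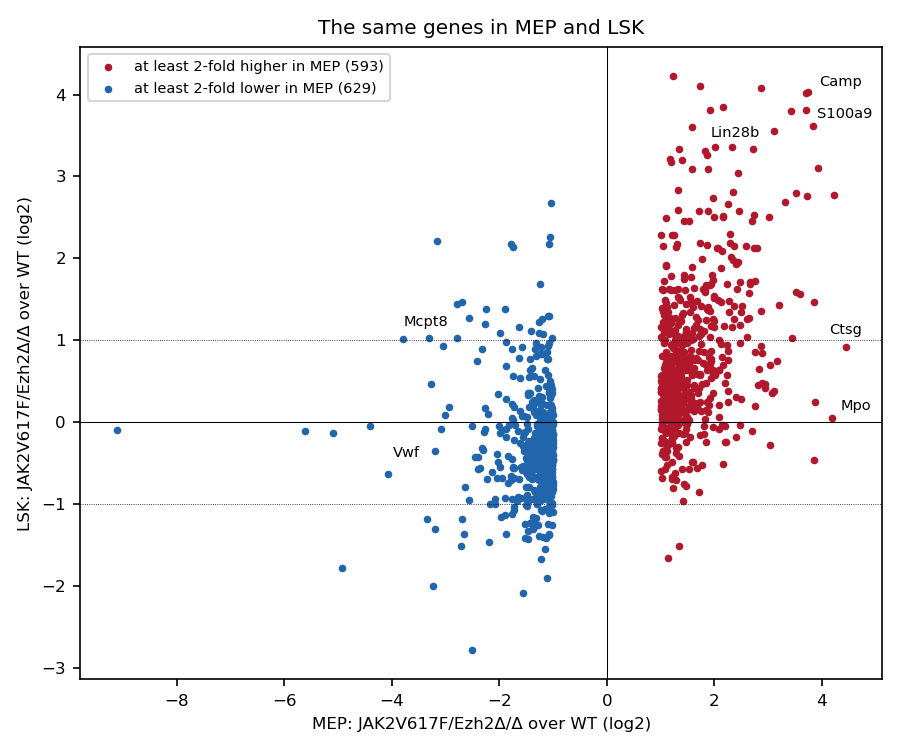
Log2 fold of double mutant over WT in MEP (horizontal) and LSK (vertical) for genes at least 2-fold apart in MEP and read in LSK, with dotted lines at 2-fold in LSK. Of 593 genes higher in MEP, 206 lie above the upper line; of 629 lower in MEP, 47 lie below the lower line.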

How the data were processed

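RNA of MEP and LSK from 4 genotypes was measured on 8 one-colour arrays, 1 per group. The scanner output as deposited is intensity per spot; per the file headers, background subtraction and spatial detrending were done in Feature Extraction version 10.7.1.1. The authors' deposited series table holds a linear ratio, the same signal divided by a factor per array. Each array had 62976 spots, 3671 of them controls, and 55681 probes, of which 27509 matched a gene through RefSeq accessions (assembly GRCm38.p6, used for names, chromosomes and promoters). Signals of repeated spots were averaged on the linear scale, turned into log2 and scaled to the array's 75th percentile over probes. A gene took its probe with the highest mean level. Calls used a 2-fold difference, since 1 array per group allows no test; the number of arrays limits the precision. Named genes were the 15 furthest each way whose probes share a sign, 6 departures each way, up to 5 called members and some defining members per list, and Ezh2 and Jak2. The members and the 22 lists were chosen with earlier results of these data known. The calculation was run on simulated arrays with known changes, placed only in genes above background on all 8 arrays. Changes in dim genes and spots bright on 1 array were not simulated, so that run checks the arithmetic and not the folds reported here. Alternatives were normexp on the median signal with offset 50 and quantile normalization in limma 3.58.1 (R 4.3.3), other filters and thresholds; Python 3.11.15 and pandas 2.3.3 did the rest. The X and Y genes were left out of the counts. Some named genes are not reported here.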

Additional observations from a re-analysis of the deposited data

Results flagged for a closer look

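The genes named here were at least 2-fold apart in opposite directions in MEP and LSK, with 1 array per group, so the difference between the cell types was not tested. Mcpt8, a basophil protease, had a log2 fold of double mutant over WT of -3.31 (at least) in MEP and 1.02 in LSK. Igll1, of the pre-B surrogate light chain, had -1.24 in MEP and 1.69 (at least) in LSK. Ccl3, a chemokine, had 1.35 (at least) in MEP and -1.52 in LSK. Zfyve9 had -3.79 (at least) in MEP and 1.01 (at least) in LSK, and its MEP value rests on a probe bright on the WT MEP array alone.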

How the results depend on the processing

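No paired analysis was possible because each group has 1 array, and for the same reason no replicate could be left out. With normexp background correction, 334 genes were higher and 342 lower, 66 went beyond the sum, 439 equalled it and 29 fell short, and the medians were 1.88 (granulocyte), 0.96 (monocyte and macrophage) and 0.63 (developmental regulators). With genes above background on all 4 MEP arrays, 393 were higher, and the medians were 0.57 (monocyte), 0.22 (mast cell), 0.26 (fetal), -0.61 (developmental regulators, turned) and -0.36 (TGF-beta, turned). With no filter, the medians were -1.03 (megakaryocyte), 0.22 (monocyte), -0.10 (MHC class II), and -0.29 for mast cell, B lineage, fetal, imprinted and developmental genes, the difference between the floors of the arrays. With no floor, 1015 genes were higher, and the medians were 2.07 (monocyte), 1.47 (B lineage) and 1.88 (developmental). With the mean of all probes, they were 1.09 (monocyte) and -0.35 (developmental, turned). At 1.5-fold, 1375 genes were higher and 3014 lower (31.3% higher), with 1714 more, 1753 equal and 244 less than the sum; at 4-fold, 139 and 73 (65.6% higher), with 5, 79 and 6. The share of higher calls was 49.5%, and 40.9% to 58.4% under the alternatives that kept the 2-fold threshold. The median of all genes was -0.12 to -0.29. Mafg had a log2 fold of 0.11 when probes bright on 1 array alone were dropped, an alternative chosen after seeing the data. Of 1179 values of 104 named genes under alternatives, 1065 moved by less than the SD between probes and 2 turned. The causes were not tested, and signal over background limits the 268 higher genes whose WT value is only a bound.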
